A study of Mus musculus with 4 samples.

Results

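A set of 10 genes of the Trem2 receptor axis and of disease-associated microglia (DAM) were followed through CD45+ cells of the mouse spinal cord. They were the receptor Trem2 and its signalling partner Tyrobp, the receptors Axl and Mertk with their bridging ligand Gas6, and Itgax, Cst7, Cd9, Spp1 and Gpnmb. They were taken by symbol, 1 row each, from the 31053 genes of the 4 count matrices, and all 10 members were found. The cells came from 3-month-old C57BL/6 mice and were sorted live on CD45 from a segment of cord around the lesion. Sham mice had a laminectomy at T10 without contusion, and injured mice had a moderate contusion there by Allen's method and were taken at 3 or 14 days post injury (dpi). The first sham library was taken as dissociated by the standard protocol, since its title lacks the mark of the other, and the other sham library and both injured libraries were dissociated with the transcription inhibitor actinomycin D (ActD). There was 1 library per condition. Per the methods, mice of both sexes were divided at random into control, 3 dpi and 14 dpi groups, but how many went into each library is not given in the sources used here, so the spread between replicates is unknown and conditions were compared without a test.

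TREM2 is a lipid-sensing receptor at the surface of microglia, the resident macrophages of the central nervous system, and it signals through the adaptor TYROBP (DAP12), whose phosphorylated tail recruits the kinase SYK. AXL and MERTK belong to the TAM receptors, which bind phosphatidylserine on dying cells through the bridging proteins GAS6 and protein S. In mouse models of neurodegeneration, microglia near plaques lower their homeostatic genes and turn on a DAM programme of lipid and lysosomal genes, the later stage of which depends on Trem2.

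Promoter sequence from RefSeq (GRCm38.p6) was at hand for 9 of the 10 members, all but Tyrobp, as windows of 300 bases, 250 before the annotated start and 50 after. Both strands were searched for the AP-1 motif TGANTCA, the PU.1 motif GAGGAA and the E-box CACGTG, which do not overlap in these windows. The AP-1 letters were found in 4 members, Trem2, Itgax, Cst7 and Gpnmb, and in 7.81% of 32851 promoters of the same length. They began at positions -9, -56, -6 and 8, with the start counted as 0. The PU.1 letters were found in Trem2 (-40), Axl (-130) and Spp1 (-113), against 28.3% of all promoters, and the E-box in none of the members, against 7.15%. The 4 windows with AP-1 letters are shown for the 150 bases before and the 20 after the start, on the plus strand, with the AP-1 letters in capitals and, in Trem2, also the PU.1 letters of the reverse strand (TTCCTC). They lie at chr17:48346251-48346420, chr7:128129400-128129569, chr2:150570265-150570434 and chr6:49036368-49036537. These matches are a description of letters and no sign of binding.
Trem2: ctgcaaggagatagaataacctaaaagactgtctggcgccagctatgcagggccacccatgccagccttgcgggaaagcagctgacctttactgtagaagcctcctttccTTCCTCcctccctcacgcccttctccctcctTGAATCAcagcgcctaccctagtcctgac
Itgax: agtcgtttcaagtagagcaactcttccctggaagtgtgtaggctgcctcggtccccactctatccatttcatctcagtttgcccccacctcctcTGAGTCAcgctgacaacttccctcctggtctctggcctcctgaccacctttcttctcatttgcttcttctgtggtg
Cst7: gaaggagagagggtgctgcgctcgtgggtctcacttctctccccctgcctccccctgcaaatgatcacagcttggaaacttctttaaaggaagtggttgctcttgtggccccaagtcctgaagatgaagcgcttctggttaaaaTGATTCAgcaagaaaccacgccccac
Gpnmb: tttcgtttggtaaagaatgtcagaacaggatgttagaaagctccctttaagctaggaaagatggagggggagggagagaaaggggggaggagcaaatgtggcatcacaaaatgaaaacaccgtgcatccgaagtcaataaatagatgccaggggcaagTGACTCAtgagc

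Each RNA molecule carried a unique molecular identifier (UMI), and the matrices hold UMI counts per gene and cell barcode. The libraries held 2439 to 11631 barcodes and 27447471 to 129935880 UMIs. After the filters of the study, with doublets called by another method, 2135 to 9078 cells with median UMI counts of 7426 to 9672 were kept. Pairs of libraries shared 3 to 36 barcodes, 0.123 to 0.697% of the smaller library. Clusters were made without the 10 members and named from marker genes. Microglia-like cells numbered 3021 in the standard sham library, 1627 in the ActD sham library, 1131 at 3 dpi and 4183 at 14 dpi. Border macrophage-like cells, which carry markers of macrophages of the meninges and vessels, numbered 102, 136, 324 and 136. Injury macrophage-like cells were named only after injury, 2843 at 3 dpi and 261 at 14 dpi, the latter in 1 cluster with 6 of 10 markers detected and Gpnmb, Fabp4 and Ms4a7 among its leading genes. Levels are given as counts per 1000000 UMIs of the class (CPM), with exact Poisson intervals, ratios with exact conditional intervals and shares with exact Clopper-Pearson intervals, all at 95% and all for counting error only. UMIs were summed over cells, so that a library gave 1 value for a class.

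The markers set limits to these names. The 11 microglial markers summed to 16737, 29604, 5882 and 13401 CPM in microglia of the sham libraries (standard, then ActD) and at 3 and 14 dpi, and none was at 0 in any of them. In macrophages they summed to 968 and 6269 CPM after 3 and 14 days. The 10 markers of injury macrophages summed to 72.9, 5557 and 650 CPM in microglia of the 3 ActD libraries in order of time, and to 13763 and 1749 CPM in macrophages after 3 and 14 days. Microglia at 3 dpi thus held RNA of injury macrophage markers, and macrophages at 14 dpi RNA of microglial markers, and their part in the values below was not tested. The 3 dpi matrix carries software version 3.0.1, as the standard sham matrix does, and the ActD sham and 14 dpi matrices carry 3.1.0, so time and version cannot be told apart for 3 dpi. Of 12 immediate early genes, 11 were at least 2-fold higher in microglia at 3 dpi than in the ActD sham library, and 12 were in the standard sham library, against 4 at 14 dpi. Of all genes, 16.2, 8.14 and 6.99% were.

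In microglia the members moved in different directions with time. At 3 dpi, Spp1 and Gpnmb stood far above the sham level and Cst7 2.02-fold above it, while Trem2 and Mertk stood lower. At 14 dpi, Axl, Itgax and Cst7 joined Spp1 and Gpnmb at levels at least 7.21-fold those of the sham library, and Mertk stayed lower. Trem2 (1.23-fold), Cd9 (1.44-fold) and Tyrobp (1.78-fold) stood higher by less than 2-fold. At least 2-fold higher were 3 of 10 members at 3 dpi over the ActD sham library (16.2% of 12427 genes were, counting those that had 20 or more UMIs over both libraries), 5 of 10 at 14 dpi over the ActD sham library (6.99% of 12454 genes), and 6 of 10 at 14 over 3 dpi (11.8% of 12825 genes). At least 2-fold lower were 2, 1 and 1 members, against 32.7, 18.5 and 16.4% of all genes, so that these counts were no higher than the background. The count of 3 at 3 dpi rests on Cst7 at a log2 ratio of 1.01, which came to 0.76 with a stricter filter on cells and to 0.52 with the B cell level taken off, either of which left 2 members. It also rests on Gpnmb, whose CPM at 3 dpi was not above that of B cells within counting error. These comparisons share their libraries. The median gene had a log2 ratio of -0.50 at 3 dpi over sham, -0.52 at 14 dpi over sham and 0.00 at 14 over 3 dpi, and the TMM factors of edgeR add 0.41, 0.50 and 0.09 to every ratio. With TMM, 7 members were at least 2-fold higher at 14 dpi over sham, with Tyrobp (1.34) and Cd9 (1.03) added. Trem2 at 3 dpi (-0.62) and Mertk at 14 dpi (-0.75) were no longer 2-fold lower. The shares of all genes above are without TMM, so the count of 7 has no background beside it.

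Trem2 (ENSMUSG00000023992; chromosome 17, 48346401 to 48354147 in GENCODE M21) stood at 1909 CPM in microglia of the standard sham library, 2448 CPM (2424 to 2472) in the ActD sham library, 1199 CPM (1185 to 1214) at 3 dpi and 3013 CPM (2997 to 3028) at 14 dpi. The 3 dpi library was the lowest and the 14 dpi library the highest of the 4, and no intervals overlapped. The log2 ratio to the ActD sham library was -1.03 (-1.05 to -1.01) at 3 dpi and 0.30 (0.28 to 0.32) at 14 dpi. Microglia were deeper at 3 dpi, with a median of 17706 UMIs per cell against 9318 in the ActD sham library and 10570 at 14 dpi. Counted per cell and not as CPM, Trem2 stood at 25 UMIs in the ActD sham library, 24.4 at 3 dpi and 35.4 at 14 dpi, so that it was lower at 3 dpi as a share of UMIs and nearly level in UMIs per cell.

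Tyrobp (ENSMUSG00000030579; chromosome 7, 30413760 to 30417585), the adaptor that carries the Trem2 signal, stood at 2372, 2980.0, 2907 and 5315 CPM in the same order. It was level between the ActD sham library and 3 dpi, with a log2 ratio of -0.04 (-0.05 to -0.02) that became 0.37 with TMM, and higher at 14 dpi, with a log2 ratio of 0.83 (0.82 to 0.85). Per cell, it stood at 30.4 UMIs in the ActD sham library, 59.2 at 3 dpi and 62.4 at 14 dpi. On the CPM scale Trem2 was lower at 3 dpi and Tyrobp level, and per cell Trem2 was nearly level and Tyrobp higher. Nearly all microglia carried both at a common depth. After each cell was thinned to 2000 UMIs, a Trem2 UMI was found in 95.7, 98.3, 85.7 and 99.2% of microglia and a Tyrobp UMI in 97.0, 99.0, 98.7 and 99.8%.

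Axl (ENSMUSG00000002602; chromosome 7, 25757273 to 25788705, minus strand), a TAM receptor of activated phagocytes, stood at 30.6, 31.4, 30.1 and 226 CPM. The first 3 libraries overlapped within their intervals, and 14 dpi stood apart at 222 to 231 CPM. The log2 ratio to the ActD sham library was -0.06 (-0.23 to 0.11) at 3 dpi, 0.35 with TMM, and 2.85 (2.72 to 2.98) at 14 dpi. Per cell, Axl was higher at 3 dpi, with 694 UMIs in 1131 cells against 521 in 1627 of the ActD sham library. Mertk (ENSMUSG00000014361; chromosome 2, 128698956 to 128802894), the TAM receptor of resting microglia, ran the other way and stood at 342, 439.9, 83.3 and 185 CPM. It was lower than in the ActD sham library at both times, with log2 ratios of -2.40 (-2.47 to -2.33) at 3 dpi and -1.25 (-1.30 to -1.21) at 14 dpi.

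Per cell, Mertk stood at 4.49 UMIs in the ActD sham library, 1.70 at 3 dpi and 2.17 at 14 dpi, so it was lower on both scales. Gas6 (ENSMUSG00000031451; chromosome 8, 13465374 to 13494490, minus strand), the ligand of both receptors, stood at 76.3, 115, 125 and 121 CPM. Its 3 ActD libraries lay close together on the CPM scale, with log2 ratios of 0.12 (0.03 to 0.20) at 3 dpi and 0.07 (0.00 to 0.15) at 14 dpi. Counted per cell, Gas6 was higher at 3 dpi than in the ActD sham library, with 2879 UMIs in 1131 cells against 1914 in 1627. As CPM in microglia, Axl was thus higher at 14 dpi, Mertk lower at both times and Gas6 near its sham level.

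Itgax (ENSMUSG00000030789; chromosome 7, 128129547 to 128150657) encodes CD11c, an integrin chain of dendritic cells that DAM also carry. It stood at 8.18, 11.3, 12.8 and 95.8 CPM, with 14 dpi far above the rest and the standard sham library lowest. The log2 ratio to the ActD sham library was 0.18 (-0.09 to 0.45) at 3 dpi and 3.08 (2.87 to 3.30) at 14 dpi. Per cell, Itgax was higher at 3 dpi, with 295 UMIs in 1131 cells against 188 in 1627 of the ActD sham library. These UMIs lay mostly in the microglial clusters led by proliferation genes, at 23.1 and 13.2 CPM. The other clusters at 3 dpi held 6.35 to 9.62 CPM. Without the clusters led by proliferation genes, the log2 ratio at 3 dpi came to -0.73. Cst7 (ENSMUSG00000068129; chromosome 2, 150570415 to 150578944), which encodes the lysosomal protease inhibitor cystatin F, stood at 18.5, 25.4, 51.2 and 595 CPM. It was the member with an intermediate level at 3 dpi, with a log2 ratio of 1.01 (0.85 to 1.18) there and 4.55 (4.41 to 4.69) at 14 dpi. Cd9 (ENSMUSG00000030342; chromosome 6, 125460266 to 125494791, minus strand), a tetraspanin, stood at 1015, 1289.8, 779 and 1856 CPM. On the CPM scale its order of libraries was that of Trem2, with log2 ratios of -0.73 (-0.76 to -0.70) and 0.53 (0.50 to 0.55). Counted per cell, Cd9 was higher at 3 dpi than in the ActD sham library, with 17946 UMIs in 1131 cells against 21398 in 1627.

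**Figure D1:**
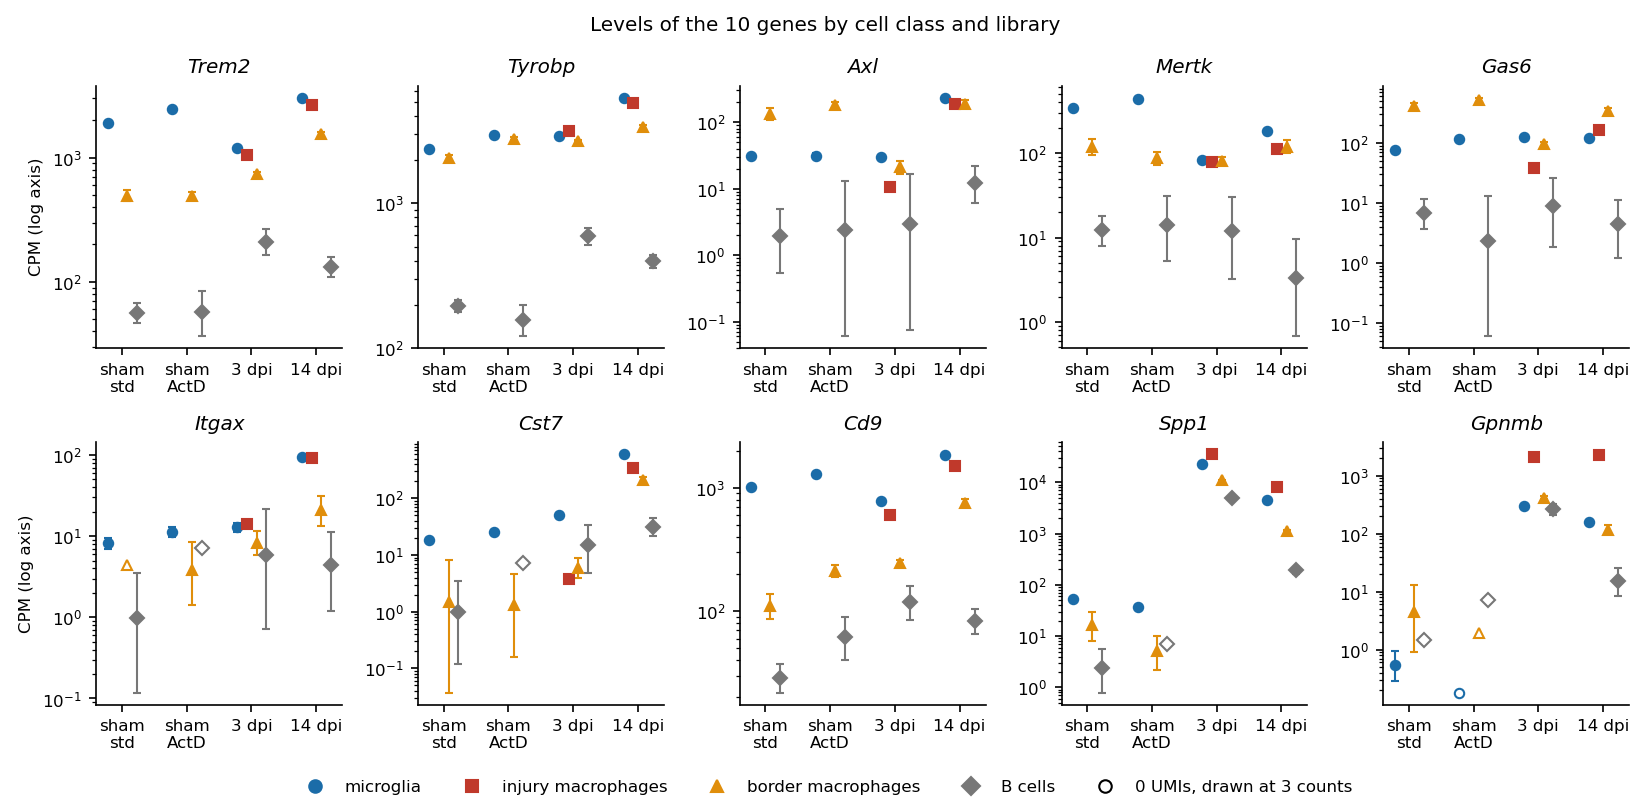
Each panel plots the level of 1 member in CPM on a log axis, against library, in microglia (circles), injury macrophages (squares), border macrophages (triangles) and B cells (diamonds), with 95% Poisson intervals for counting error, and open symbols mark classes with 0 UMIs, drawn at the level of 3 counts. Microglia at 14 dpi stand apart from the other 3 libraries in Axl (226 CPM), Itgax (95.8 CPM) and Cst7 (595 CPM), while Spp1 is highest at 3 dpi (22686 CPM).

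Shares of cells at a common depth also set 14 dpi apart from the other libraries. After thinning, an Axl UMI was found in 4.23, 4.47, 5.34 and 33.3% of microglia (unthinned 13.5, 15.9, 31.7 and 74.4%), a Cst7 UMI in 2.33, 2.74, 9.29 and 49.3% (6.79, 10.8, 43.4 and 77.2%), and an Itgax UMI in 1.13, 1.47, 1.93 and 13.4% (4.14, 6.27, 14.8 and 37.4%). In B cells at 14 dpi, which should lack these genes, the thinned shares were 1.16, 6.95 and 0.386% at a median depth of 2985 UMIs, against 10570 in microglia. Each lay below the share in microglia of that library.

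Spp1 (ENSMUSG00000029304; chromosome 5, 104435118 to 104441050), the secreted phosphoprotein osteopontin, stood at 53.1, 36.8, 22686 and 4472 CPM. It reached 616-fold the level of the ActD sham library at 3 dpi, a log2 ratio of 9.27 (9.15 to 9.38), and 121-fold at 14 dpi, a log2 ratio of 6.92 (6.81 to 7.04). Gpnmb (ENSMUSG00000029816; chromosome 6, 49036546 to 49070929), a lysosomal and surface glycoprotein of lipid-laden macrophages, had 12 UMIs in microglia of the standard sham library, none in those of the ActD sham library, and stood at 302 and 159 CPM in the injured libraries. Against the level that 3 counts over the sham class would give, it was 1669-fold higher at 3 dpi and 879.8-fold higher at 14 dpi, with the counts as deposited. The lower limits of the log2 ratios were 10.41 and 9.48. With the B cell level taken off as free RNA, the log2 ratio to 3 counts at 3 dpi came down to 7.62, and that at 14 dpi was 9.63. Both genes ran opposite to Trem2 and Axl between the injured libraries and were lower at 14 than at 3 dpi, Spp1 5.07-fold and Gpnmb 1.90-fold.

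On the CPM scale, Gpnmb in microglia at 3 dpi was largely matched in B cells. B cells of that library held 266 CPM of Gpnmb, 88.2% (70.8 to 109%) of the microglial level, and 4912 CPM of Spp1, 21.7% (20.6 to 22.7%) of it. As a share of UMIs, a level of Gpnmb in microglia at 3 dpi above that of B cells was thus not detectable within counting error. Depth differed between the classes, with medians of 17706 UMIs per cell in microglia and 2489.5 in B cells. Counted per cell, Gpnmb was higher in microglia, with 6953 UMIs in 1131 cells against 90 UMIs in 126 B cells. Taking off the B cell CPM does not allow for this difference in depth. With the B cell level of each library taken off, the log2 ratio of Gpnmb at 14 over 3 dpi turned from -0.92 to 2.01, and it also turned to 0.27, 0.32 and 0.75 with other ways of naming the cells. The direction of Gpnmb in microglia between 3 and 14 dpi therefore depends on the processing, whereas the ratio of Spp1 was negative under every alternative run.

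Between 3 and 14 dpi, microglia at 14 dpi were higher in 6 members. The log2 ratios were 1.33 (1.31 to 1.35) for Trem2, 2.91 (2.80 to 3.02) for Axl, 1.15 (1.08 to 1.22) for Mertk, 2.90 (2.73 to 3.08) for Itgax, 3.54 (3.45 to 3.62) for Cst7 and 1.25 (1.23 to 1.28) for Cd9. Tyrobp followed with 0.87 (0.86 to 0.88), and Gas6 stood at -0.04 (-0.11 to 0.02), or 0.05 with TMM. Without the microglial clusters led by proliferation genes, 213 and 254 cells at 3 dpi with 938 and 1132 CPM of Trem2, none of these 8 ratios changed direction, and that of Mertk came to 0.81.

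**Figure D2:**
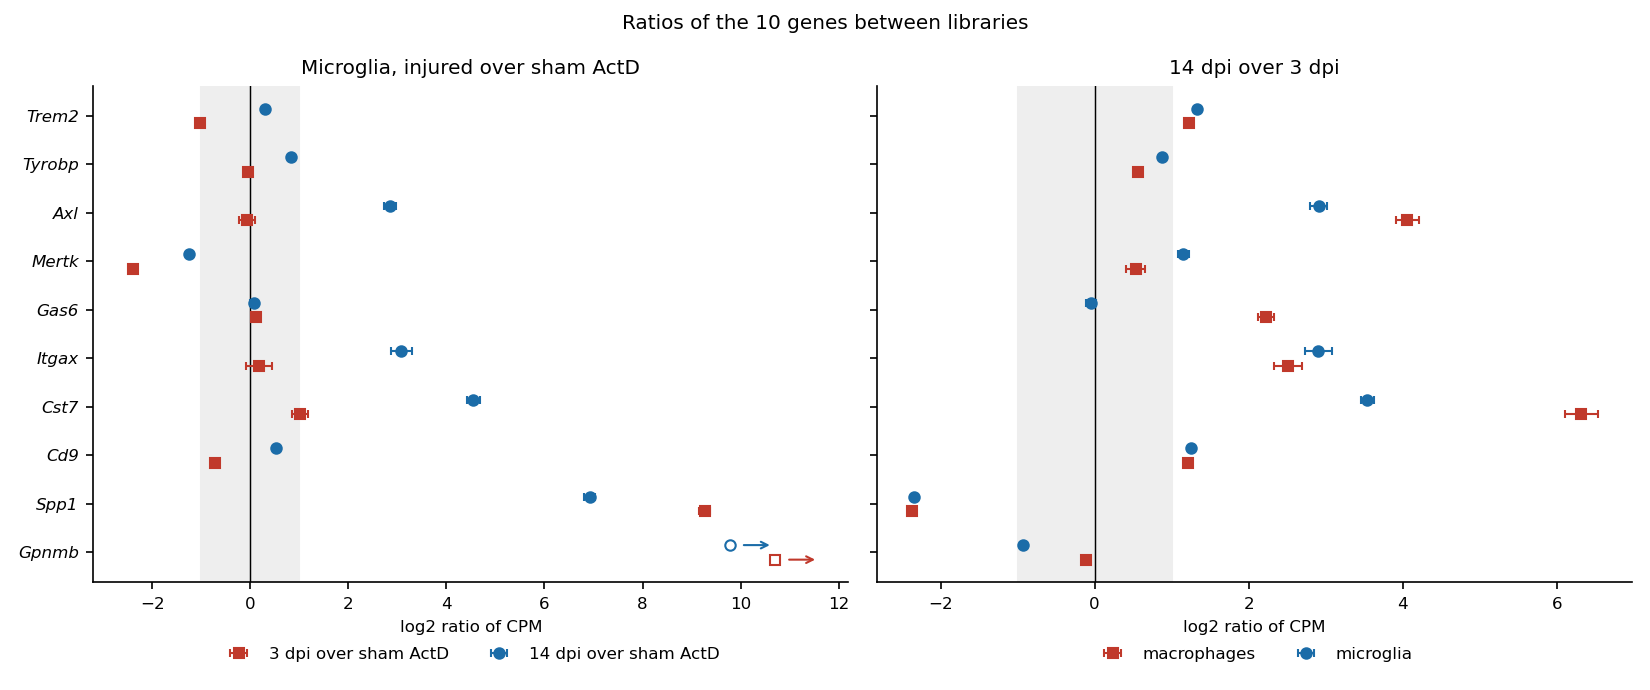
The left panel plots the log2 ratio of CPM of each member in microglia at 3 dpi (squares) and 14 dpi (circles) over the ActD sham library, and the right panel that of 14 over 3 dpi in microglia (circles) and macrophages (squares), with 95% intervals for counting error and a grey band from -1 to 1. Open symbols with arrows mark ratios to the level of 3 counts. In the left panel, Axl and Itgax lie beyond the band at 14 dpi only, and Cst7 lies at its edge at 3 dpi (1.01) and beyond it at 14 dpi (4.55).

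Between the dissociation protocols most members differed by less than 2-fold. In the sham libraries, none of the 9 members with at least 20 UMIs was at least 2-fold higher with the standard protocol (8.14% of 12059 genes were). None of the 9 was 2-fold lower, against 21.1% of genes. Gpnmb, with 12 UMIs against 0, was not counted, and its ratio to the level of 3 counts was 3.02-fold. The log2 ratios of the other 9 members ran from -0.60 (-0.69 to -0.50) for Gas6 to 0.53 (0.38 to 0.67) for Spp1. The median gene stood at -0.53 and TMM adds 0.52, with which Trem2, Tyrobp, Axl, Mertk, Itgax, Cst7 and Cd9 turn from below to above 0, so their direction between the protocols depends on the scaling.

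Genes around the members were taken from lists. At 3 and 14 dpi over the ActD sham library, 16.2 and 6.99% of all genes were at least 2-fold higher and 32.7 and 18.5% lower, and the counts of the lists are to be read against these shares. Of 14 genes that carry or limit the signal of Trem2 and Tyrobp, 1 was at least 2-fold higher and 5 lower in microglia at 3 dpi over the ActD sham library (median log2 ratio -0.78, with all genes at -0.50), and 2 were higher and 2 lower at 14 dpi (-0.72, with all genes at -0.52). The kinase Syk was at 108, 58.1 and 57.5 CPM in the ActD sham, 3 dpi and 14 dpi libraries, and the phosphatase Inpp5d, which limits the signal, at 434, 176 and 198 CPM. Hcst, which encodes DAP10, another adaptor of TREM2, had log2 ratios of 0.68 and 1.24, and Card9, an adaptor downstream of SYK, of -2.01 and -1.44. Syk thus stayed within 2-fold at both times, and the share of the list that was lower lay near that of all genes. Vav3 had a log2 ratio of 5.32 at 3 dpi, from 5 UMIs in the sham library.

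Other receptors, listed as coupled to Tyrobp though not all of them need use it, differed more. Of the 9 with at least 20 UMIs, 7 were at least 2-fold higher and 1 lower at 3 dpi, and of 7 at 14 dpi, 4 were higher and 1 lower. Trem1, a receptor that amplifies inflammation in neutrophils and monocytes, had 18.7 CPM at 3 dpi and 1 UMI in the ActD sham library (log2 8.27, 5.79 to 13.58). B cells of the 3 dpi library held 14.8 CPM of Trem1, and 26.6 CPM of Cd300ld against 33.5 CPM in microglia. Cd300lb and Cd300ld had log2 ratios of 3.20 and 5.21 at 3 dpi and of 3.43 and 3.38 at 14 dpi, and Siglech, a microglial receptor, of -4.51 and -2.19. Of 6 genes listed beside the TAM receptors, not all of them ligands of these, 3 were measured. Pros1, which encodes protein S, was lower (-2.45 at 3 dpi and -1.17 at 14 dpi), Lgals3, a galectin that binds MERTK, was higher (6.28 and 4.63), and Mfge8 stood at -0.46 and -0.55.

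Among further DAM genes, more were higher than lower at both times, and homeostatic genes were mostly lower. Of 24 measured DAM genes that are no members, 13 were at least 2-fold higher and 4 lower at 3 dpi (median 1.28), and 16 were higher and none lower at 14 dpi (median 1.61). Fabp5 (7.04), Lgals3 (6.28) and Ch25h (5.56) had the largest log2 ratios at 3 dpi, and B2m (-1.86) and Lgals3bp (-1.88) were among those lower. B cells of the 3 dpi library held 839.9 CPM of Fabp5 against 1408 CPM in microglia and 568 CPM of Lgals3 against 1236 CPM, but 5.91 CPM of Ch25h against 51.2 CPM. At 14 dpi the largest were those of Apoc1 (8.45), Ch25h (7.11) and Igf1 (7.10). Of 18 homeostatic genes, 16 were at least 2-fold lower at 3 dpi (median -2.55) and 13 at 14 dpi (median -1.32), and none was higher at either time. P2ry12, the microglial ADP receptor, had log2 ratios of -4.20 and -2.68. Mertk, with -2.40 and -1.25, was lower at both times as well.

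In macrophages, 6 of 10 members were at least 2-fold higher at 14 than at 3 dpi (17.6% of 12200 genes were) and 1 was lower (9.93% of genes). The median gene stood at 0.20 and TMM adds -0.32, with which 4 members were at least 2-fold higher, Trem2 (0.90) and Cd9 (0.89) being lost. The count was also 4 with each library clustered alone, with each cell named on its own and with the looser filter. No share of all genes is given for these counts of 4. Injury macrophages held 1057 and 2635 CPM of Trem2 at 3 and 14 dpi, 10.4 and 189 CPM of Axl, 38.9 and 166 CPM of Gas6, 14.0 and 92.7 CPM of Itgax, 3.78 and 344 CPM of Cst7, and 602 and 1489.9 CPM of Cd9. All of these were higher at 14 dpi. The name is weaker at 14 dpi, where the marker score of the cluster (mean log2 level above the lower quartile of clusters) was 2.75 for injury macrophages and 2.45 for microglia. The 10 injury macrophage markers summed to 13763 and 1749 CPM in all macrophages at 3 and 14 dpi, and to 1735 CPM in those of the ActD sham library. The part of this in the ratios was not tested. Over both macrophage classes, the log2 ratios were 6.32 (6.11 to 6.53) for Cst7, 4.06 (3.91 to 4.21) for Axl, 2.51 (2.33 to 2.69) for Itgax and 2.23 (2.12 to 2.34) for Gas6. As CPM, Cst7 in these macrophages at 3 dpi (3.95) lay below that in B cells of the library (14.8, from 5 UMIs). Spp1 fell short of its 3 dpi level, 35295 against 7925 CPM in injury macrophages and -2.37 (-2.38 to -2.35) over both classes, as it did in microglia. Gpnmb was at a like level at both times, 2122 and 2309.6 CPM, and it is a leading gene of the clusters that carry this name.

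These macrophages were 397 cells at 14 dpi and 3167 at 3 dpi, and their makeup depended on the naming. At 14 dpi, 246 cells were named macrophages when each library was clustered alone, 223 when each cell was named on its own and 343 with the looser filter of 200 genes and 20% mitochondrial UMIs. With the looser filter, no cluster at 14 dpi was named injury macrophage. Its 343 cells were all border macrophage-like, and a cluster of 860 cells led by Gpnmb and Spp1 was named microglia. At 3 dpi, 125 of the 3525 macrophages were border macrophage-like, so this ratio set unlike classes side by side. In it, the log2 ratios of Trem2 and Cd9 turned to -0.14 and -0.36. Those of Axl, Gas6, Itgax and Cst7 were at least 1.26 under all alternatives run. Cst7 ranged from 3.88 to 12.27. The upper end came with the B cell level taken off, which left Cst7 in macrophages at 3 dpi below 0 (-10.8 CPM). It was then set to the level of 3 counts, so 12.27 is not a measured ratio. The summed microglial markers stood at 968 and 6269 CPM in these macrophages, and their part in the ratios was not tested.

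As CPM, border macrophages held more Axl and Gas6 than microglia in the sham libraries and less of each at 3 dpi. At 14 dpi they held more Gas6 and less Axl. In the order used for microglia, they held 134, 181, 21 and 185 CPM of Axl and 408, 526, 94.5 and 341 CPM of Gas6. Both genes were lowest at 3 dpi and close to their ActD sham level again at 14 dpi for Axl (1.02-fold, log2 0.03, -0.23 to 0.29), while Gas6 remained 1.54-fold lower. At 3 dpi, Axl was 8.63-fold and Gas6 5.56-fold lower than in the ActD sham library. The clusters behind the class differed, since it held clusters 10 (88 cells) and 7 (48 cells, led by MHC class II genes) in the ActD sham library but cluster 10 alone at 3 and 14 dpi, led at 3 dpi by Ppbp, Pf4 and Ccl24, and the part of this in the ratios was not tested. Trem2 stood at 495, 491, 736 and 1545 CPM in these cells and Cst7 at 1.47, 1.29, 5.97 and 208 CPM, so that both were highest at 14 dpi. Cst7 had 2 UMIs in the ActD sham cells and a ratio of 161 (log2 7.33, 5.46 to 10.39).

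Injury macrophages exceeded border macrophages in Gpnmb 5.05-fold at 3 dpi and 19.7-fold at 14 dpi, in Spp1 3.25-fold and 7.08-fold, and in Itgax 4.41-fold at 14 dpi. They were lower in Gas6, 2.43-fold at 3 dpi and 2.06-fold at 14 dpi. Against microglia of the same library, all macrophages together were at least 2-fold higher in 1 member, Gpnmb, at 3 dpi (5.13% of 12796 genes were) and again at 14 dpi (6.27% of 12148 genes). The ratios of Gpnmb were 6.58-fold and 11.6-fold. At 3 dpi, 3 members were at least 2-fold lower in macrophages, Cst7 (13-fold), Gas6 (2.88-fold) and Axl (2.67-fold), against 15.5% of genes, and at 14 dpi none was, against 5.51%. The median gene stood at -0.23 and -0.03 in these comparisons and TMM adds 0.34 and -0.08. With TMM, Trem2 and Mertk at 3 dpi turned from -0.22 and -0.08 to 0.12 and 0.26. With the looser filter, where macrophages at 14 dpi were border macrophage-like only, Spp1 and Gpnmb turned from 0.53 and 3.53 to -2.75 and -2.40.

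Set against all named classes of a library, the classes that led in each member differed between the libraries, and so did the classes named. In the ActD sham library no dendritic, plasmacytoid dendritic, T or NK cells were named, so these could not be ranked there. No endothelial cells were named at 3 dpi. Where such classes lead or tie, time and naming cannot be told apart. In the ActD sham library, microglia had the highest levels of Trem2, Mertk, Cst7, Cd9 and Spp1. Border macrophages led in Gas6 at 526 CPM and in Axl at 181 CPM, the latter not apart from 29 endothelial cells within counting error. At 14 dpi, microglia led in Trem2, Axl, Mertk, Cst7 and Cd9, each without overlap with the next class. Tyrobp was level in microglia (5315 CPM) and plasmacytoid dendritic cells (5143 CPM). Dendritic cells led in Itgax at 121 CPM, above microglia (95.8 CPM), NK cells (94.8 CPM) and injury macrophages (92.7 CPM), which did not differ beyond counting error. Border macrophages led in Gas6 at 341 CPM, and injury macrophages in Spp1 and Gpnmb. At 3 dpi, neutrophils had the highest Tyrobp at 5216 CPM, and Cst7 was level in NK cells (66.8 CPM), microglia (51.2 CPM) and T cells (46.1 CPM). Mertk was level in microglia (83.3 CPM), border macrophages (81.1 CPM) and injury macrophages (78.4 CPM).

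Within microglia at 14 dpi, most cells lay in 2 clusters. Cluster 1 (2397 cells, 57.3%) was led by Lpl and Ch25h and cluster 0 (1392 cells, 33.3%) by P2ry12 and Tmem119. Cluster 1 held 5955 CPM of Spp1 against 323 CPM in cluster 0, an 18.5-fold higher level, and was 11.3-fold higher in Gpnmb, 3.20-fold in Itgax, 2.70-fold in Cst7, 1.69-fold in Axl, 1.64-fold in Gas6, 1.58-fold in Cd9, 1.33-fold in Tyrobp and 1.10-fold in Trem2. Mertk was 1.78-fold lower. Since clusters are made from the genes of these cells, this is a description and no test. A cluster of 121 cells led by interferon-induced genes held 292 CPM of Axl, the highest level among microglial clusters, and 578 CPM of Cst7.

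Cells of cluster 1 were also present in the sham libraries. They made up 8.36% of microglia in the ActD sham library (136 cells) and 8.28% in the standard sham library (250 cells). In the ActD sham library, Spp1, Trem2 and Cd9 were among the 10 genes that led this cluster. Leading genes were ranked against other cell classes, not other microglia, and Trem2 stood at 2537 CPM in cluster 1 and 2438 CPM in cluster 0. Cells of cluster 1 there held 350.3 CPM of Spp1, 64.6 CPM of Itgax, 134 CPM of Cst7 and 130 CPM of Axl. The 1401 cells of cluster 0 held 1.45, 5.30, 12.9 and 19.8 CPM. In the standard sham library, cluster 1 held 522 CPM of Spp1, 46.2 CPM of Itgax and 109.8 CPM of Cst7. Both dissociations thus yielded a small cluster with higher levels of Spp1, Itgax and Cst7 than cluster 0. At 3 dpi, Spp1 was high in every microglial cluster, from 8831 CPM in cluster 0 to 31590.4 CPM in cluster 1. Cluster 1 of that library was not higher than cluster 0 in Axl (26.5 against 42.9 CPM), Itgax (6.35 against 7.09 CPM) or Cst7 (50.8 against 62.7 CPM).

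Cells were next counted by how many of 6 members they held, Axl, Itgax, Cst7, Cd9, Spp1 and Gpnmb, after thinning to 2000 UMIs. At least 3 of the 6 were found in 1.20% of microglia in the standard sham library (33 of 2743 cells), 1.21% in the ActD sham library (19 of 1567), 32.4% (29.6 to 35.3%) of 1087 cells at 3 dpi, and 51.2% (49.7 to 52.8%) of 4088 cells, 2095 in number, at 14 dpi. Too shallow to thin were 278, 60, 44 and 95 cells. The shares without thinning were 5.06, 7.19, 87.4 and 84.1%. In B cells, the thinned shares were 0, 0, 13.5 and 0.386% (0 of 494 and of 64 cells in the sham libraries, which allows up to 0.744 and 5.60%).

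At 3 dpi, a Spp1 UMI was found in 99.6% of thinned microglia and a Gpnmb UMI in 33.9%, and B cells of that library held both (100% and 37.5%). With these genes left out, at least 2 of Axl, Itgax, Cst7 and Cd9 were found in 5.94, 7.28, 11.4 and 63.0% (61.5 to 64.5%) of microglia, in 3.50 and 50.6% of injury macrophages at 3 and 14 dpi, and in 0.962 and 1.16% of B cells at these times. This count was chosen after the data were seen. The genes kept were each higher as CPM at 14 than at 3 dpi in microglia and injury macrophages. Those left out were lower at 14 dpi in microglia. The higher shares at 14 dpi thus follow from the choice of genes and add no support. At 14 dpi, 2.67% of microglia had none of the 6 members, 19.0% had 1, 27.1% had 2, 28.3% had 3, 16.8% had 4, 5.41% had 5 and 0.832% had all 6.

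**Figure D3:**
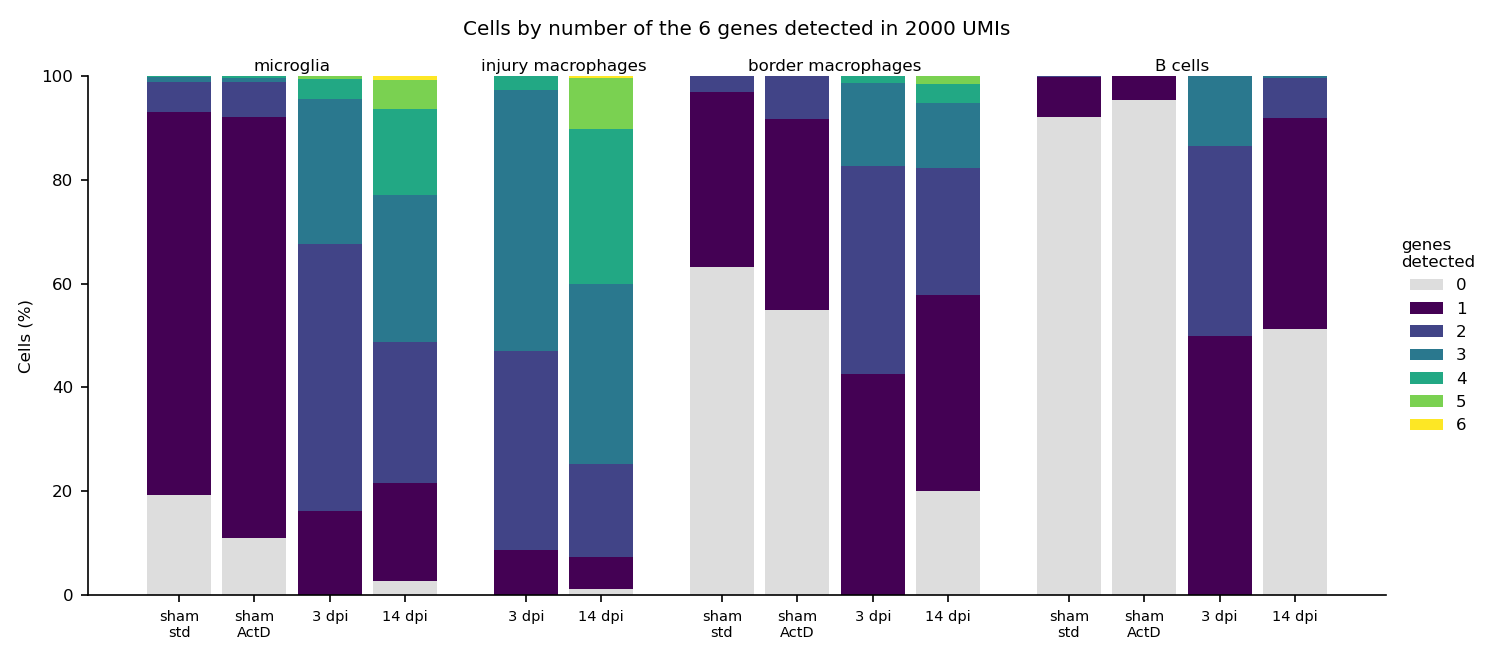
Bars show the share of cells, in %, by how many of the 6 members Axl, Itgax, Cst7, Cd9, Spp1 and Gpnmb had a UMI after each cell was thinned to 2000 UMIs, for 4 classes and each library with cells of the class. Microglia of the sham libraries mostly hold 1 member, while 51.2% of microglia at 14 dpi hold at least 3, against 0.386% of B cells there.

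In microglia at 14 dpi, several members were found more often in cells that held another member than in cells that did not. A Spp1 UMI was found in 69.5% of cells with a Cst7 UMI (1399 of 2014, 67.4 to 71.5%) and in 47.1% of those without (44.9 to 49.2%). For cells with and without a Gpnmb UMI, the shares with Spp1 were 86.3% (440 of 510) and 54.1%, and for Itgax they were 79.2% (433 of 547) and 54.8%. A Cst7 UMI was found in 63.1% of cells with Itgax and 47.1% of those without, and in 56.2% of cells with Axl and 45.8% of those without. Mertk went the other way, with Spp1 in 51.5% of cells with Mertk and 61.3% of those without. Axl was found in 32.2% of cells with its ligand Gas6 and in 33.6% of those without, and these intervals overlapped.

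To read levels from other UMIs than those used for detection, the UMIs left over after thinning were summed by the number of members found. From the 109 cells with none of the 6 to the 940 cells with 4 to 6, Spp1 ran from 146 to 8706 CPM (59.5-fold), Gpnmb from 21.6 to 358 CPM (16.6-fold), Itgax from 17 to 179 CPM (10.6-fold), Cst7 from 174 to 881 CPM (5.06-fold), Cd9 from 777 to 2127 CPM (2.74-fold) and Axl from 128 to 280.3 CPM (2.19-fold). Of the members not used for detection, Tyrobp was 1.65-fold, Trem2 1.40-fold and Gas6 1.39-fold higher, and Mertk 1.31-fold lower (155 against 202 CPM). The level of Trem2 thus spanned 2372 to 3330.2 CPM while that of Spp1 spanned a far wider range. Spp1 is among the 6 members that make the groups and Trem2 is not. Part of the wider range of Spp1 is therefore set by the grouping, and the ranges are not alike. Of 10350 genes, 6.79% were at least 2-fold higher and 9.15% at least 2-fold lower in the cells with 4 to 6 members.

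Other DAM genes followed the same split. Of 24 further DAM genes, 14 were at least 2-fold higher and none lower in the left-over UMIs of cells with 4 to 6 members. Lpl and Lgals3 were 11.8-fold higher, Fabp5 8.0-fold, Ch25h 6.62-fold and Igf1 6.19-fold. Of 18 homeostatic genes, 7 were at least 2-fold lower and none higher, with P2ry12 4.42-fold, Tmem119 3.90-fold and Siglech 3.72-fold lower. Of 13 measured genes of Trem2 and Tyrobp signalling, none passed 2-fold in either direction.

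**Figure D4:**
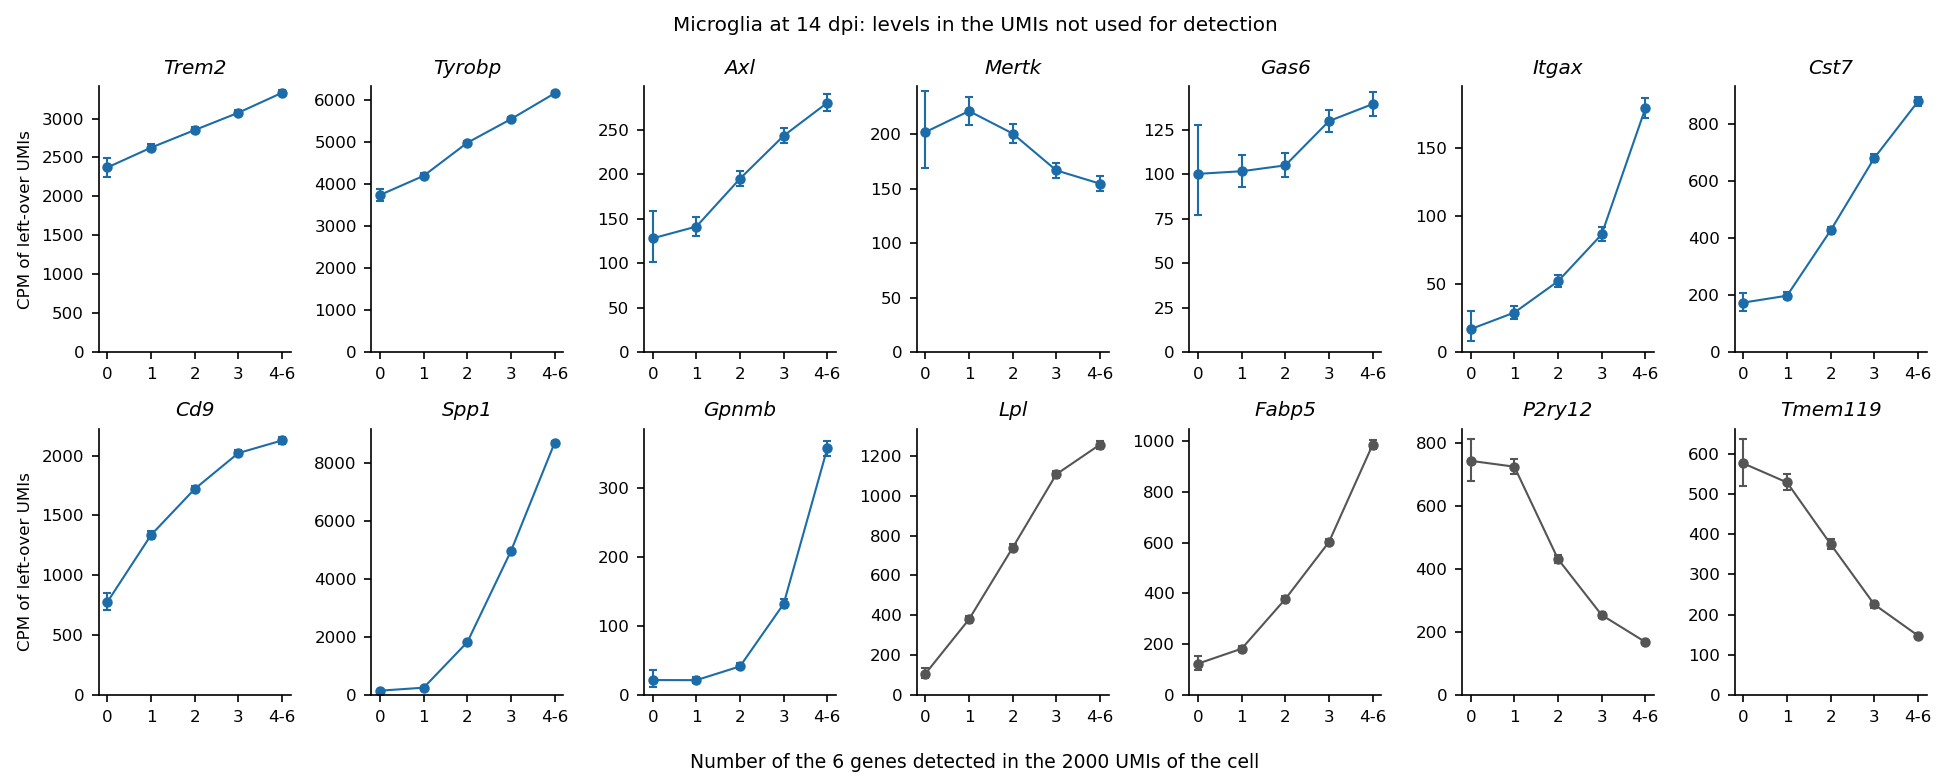
Each panel plots, for 1 gene, the CPM in left-over UMIs of microglia at 14 dpi against the number of the 6 members detected in the 2000 UMIs drawn, with 95% intervals for counting error, for the 10 members (blue) and for Lpl, Fabp5, P2ry12 and Tmem119 (grey). Spp1 spans 146 to 8706 CPM and Trem2 2372 to 3330.2 CPM, while Mertk and P2ry12 are lower in cells with more members. Spp1 is among the 6 members that make the groups and Trem2 is not.

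Across the 4088 microglia at 14 dpi, the genes whose left-over UMIs, on a log scale, followed the number of members most closely were Spp1 (Pearson r = 0.61), Cst7 (0.48), Ctsd (0.44), Pld3 (0.43), Ctsb (0.43), Fabp5 (0.42), Igf1 (0.42), Lpl (0.41), Cd63 (0.40) and Fn1 (0.39), out of 8447 genes found in at least 5% of the cells. Ctsd, Ctsb and Pld3 encode lysosomal enzymes, and Cd63 a tetraspanin of lysosomes. Spp1 and Cst7 are themselves among the members counted, so their r is in part set by the count. The lowest value was that of P2ry12 (-0.41). The members not used for detection had r of 0.28 for Tyrobp, 0.20 for Trem2, 0.12 for Gas6 and -0.07 for Mertk. These cells share 1 library, and depth still differs between them, so the values are a description.

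B cells served as a gauge of free RNA, since they should lack most members, Cd9 being one that some B cells carry. The median over members of their level in B cells, as a share of that in microglia of the same library, was 5.29% in the standard sham library (9 members with UMIs in both), 4.0% in the ActD sham library (6 members), 18.9% at 3 dpi and 4.53% at 14 dpi (10 members each). At 14 dpi it ran from 1.78% for Mertk to 9.64% for Gpnmb, and C1qa, a complement gene of microglia and macrophages that is no member, stood at 3.70%. At 3 dpi the share was 17.5% for Trem2, and every B cell deep enough to thin held a Spp1 UMI. These shares compare CPM between classes of unlike depth, with medians of 17706 and 2489.5 UMIs in microglia and B cells at 3 dpi and 10570 and 2985 at 14 dpi. Free RNA and depth cannot be told apart in them. As counts, Trem2 at 3 dpi had 71 UMIs in 126 B cells and 27626 in 1131 microglia.

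**Figure D5:**
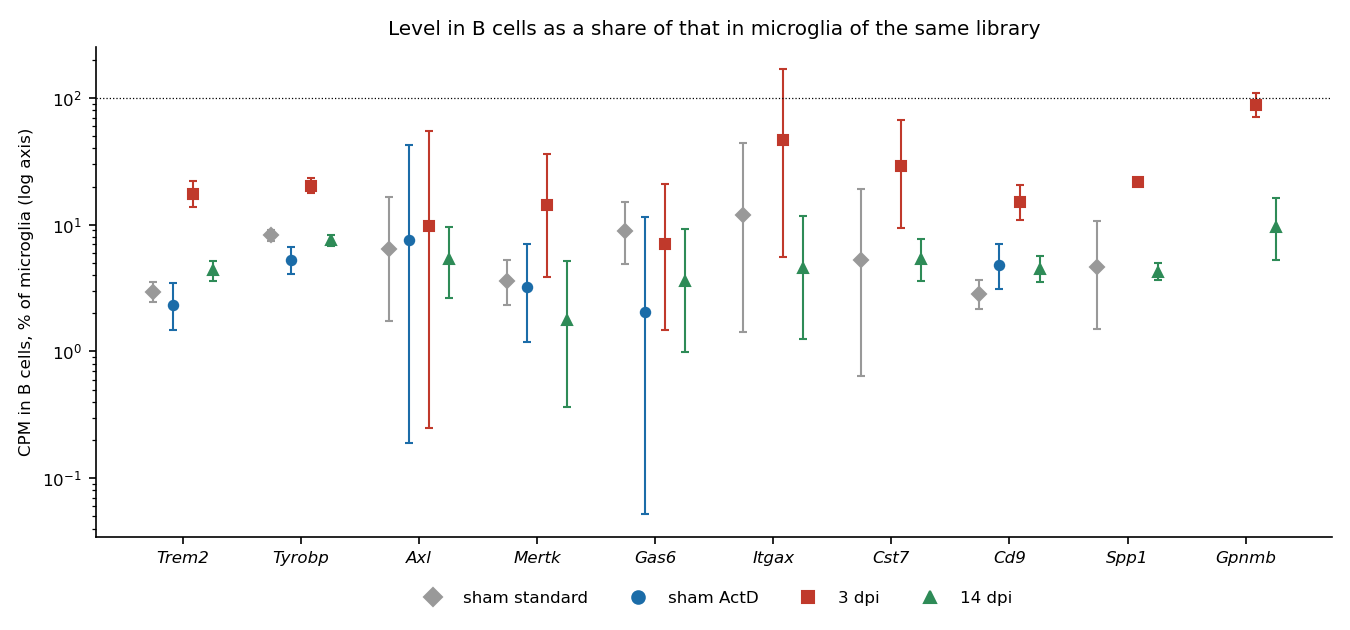
Points show the level of each member in B cells as % of that in microglia of the same library, on a log axis, with 95% intervals for counting error, and members with 0 UMIs in either class are left out. Values at 3 dpi lie above those of the other libraries for most members, with Gpnmb at 88.2%, and those at 14 dpi lie between 1.78 and 9.64%.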

How the data were processed

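Single cells were measured by droplet RNA sequencing with 10× Chromium 3′ chemistry in 4 libraries, 1 per condition. The values used are the counts of UMIs per gene and barcode that the authors deposited, made with Cell Ranger on mm10, with version 3.0.1 (standard sham, 3 dpi) or 3.1.0 (ActD sham, 14 dpi) in the matrix headers. No other columns were used (0). Of 31053 gene IDs, 30934 matched GENCODE M21, from which positions were taken.

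Following the study's methods, cells were kept from 600 genes upwards if mitochondrial UMIs made up no more than 10%, and cells with both Itgam and lymphoid genes were removed. Doublets were scored by Scrublet as held in Scanpy, and the 291, 42, 774 and 931 cells with the highest scores were removed. Libraries were integrated in Seurat 5.3.0 (R 4.3.3) with 2000 features, 50 dimensions and resolution 0.6, with the 10 members left out of the features. Clusters were named from marker genes with at least 3 markers detected in 25% of cells, and the thresholds of this naming were chosen with the clusters in view. For each class of a library, UMIs were added up in Python 3.11.15, with intervals from scipy 1.17.1. A gene with 0 UMIs in a class was set to the level of 3 counts over that class. Genes with fewer than 20 UMIs in a pair were not counted, and a gene was counted as higher or lower from 2-fold. For co-detection, each cell was thinned to 2000 UMIs drawn without replacement, and cells with fewer were left out. The ratio and interval code was tested on simulated data.

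The members and lists were chosen with earlier results of these data known. Named from each list were the 3 highest and the 3 lowest genes by ratio in a comparison, given 200 or more UMIs over both sums, of which a selection is printed, and the 10 genes most correlated with the number of members. Syk, Vav3, Trem1 and Mfge8 and the marker genes beside the results were named for their role or after their values were seen. Alternatives were TMM factors (edgeR 4.0.16), each library clustered alone (Scanpy 1.11.5), each cell named on its own, looser (200 genes, 20%) and stricter (1000 genes, 5%) filters, B cell levels subtracted as free RNA, 1.5-fold, equal weight per cell, and other depths and definitions of co-detection. Leaving out microglial clusters led by proliferation genes, of low UMI count or led by immunoglobulin genes, and the co-detection count without Spp1 and Gpnmb, were chosen after seeing the data.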

Additional observations from a re-analysis of the deposited data

How the results depend on the processing

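No paired analysis was possible because each group has 1 library, and no replicate could be left out. Intervals cover counting error only, and depth limits Itgax and Gpnmb most, with 0 to 12 UMIs of Gpnmb in sham microglia. The number of members at least 2-fold higher in the standard over the ActD sham library was 1 when Gpnmb, with its 12 UMIs, was counted. Counted so, it was 2 with TMM, with each library clustered alone and with each cell named on its own. For macrophages over microglia at 3 dpi it was 1, and 2 with each cell named on its own. At 14 dpi it was 1, but 0 with the looser filter, and 2 with 1.5-fold and with equal weight per cell. Counts under these alternatives have no share of all genes beside them. Co-detection in microglia at 14 dpi was 51.2% in the 2000 UMIs drawn, 29.5% in 1000, 71.2% in 4000, 84.1% without thinning, 78.4% for at least 2 of the 6 members and 63.0% for at least 2 of the 4 without Spp1 and Gpnmb. The median of free RNA at 14 dpi was 4.53%, and 9.68% over the 25 B cells without myeloid UMIs, with 3 members at 0 set to 3 counts.

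Log2 ratios whose 95% interval lay on 1 side of 0 and that changed direction were those of Tyrobp at 3 dpi over the ActD sham library (0.37 with TMM, 0.0083 clustered alone, 0.071 with each cell named, 0.030 with the looser filter, 0.10 without proliferating clusters and 0.070 with equal weight per cell) and of Gas6 there (-0.15 with the stricter filter). For Gpnmb in microglia at 14 over 3 dpi the values were 0.27 clustered alone, 0.32 with each cell named, 0.75 with the looser filter and 2.01 with free RNA subtracted. With TMM, the ratios of the standard over the ActD sham library turned to 0.16 (Trem2), 0.19 (Tyrobp), 0.16 (Mertk), 0.048 (Itgax), 0.059 (Cst7) and 0.17 (Cd9). In macrophages at 14 over 3 dpi, the looser filter gave -0.14 (Trem2), -0.10 (Mertk) and -0.36 (Cd9), naming each cell gave -0.058 (Mertk), and Gpnmb came to 0.11 clustered alone and 0.085 with free RNA subtracted. For macrophages over microglia at 3 dpi, TMM gave 0.12 (Trem2) and 0.26 (Mertk), the stricter filter 0.022 (Mertk), and leaving out proliferating clusters -0.031 (Tyrobp). At 14 dpi, Spp1 came to -1.07 clustered alone, -0.13 with each cell named and -2.75 with the looser filter, and Gpnmb to -2.40 with the looser filter. Ratios whose interval held 0 also changed sign, those of Axl (0.35 with TMM and with equal weight per cell) and Itgax (down to -0.73 without proliferating clusters) at 3 dpi over the ActD sham library, of Axl between the sham libraries (0.48 with TMM), of Gas6 at 14 dpi over the ActD sham library (-0.016 with equal weight per cell) and over 3 dpi (up to 0.22 with the stricter filter), and of Itgax in macrophages over microglia at 3 dpi (-0.18 with the stricter filter). With the looser filter, macrophages at 14 dpi were border macrophage-like only. The cause of these changes was not tested. Macrophages at 14 dpi numbered 397, 246 clustered alone, 223 with each cell named, 343 with the looser and 369 with the stricter filter, and microglia at 3 dpi 1131, 776, 733, 809 and 544.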

Other observations

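Lists of other gene groups gave the setting of the members in the same microglia. Of 12 interferon-response genes, 8 were at least 2-fold lower and none higher at 3 dpi over the ActD sham library (median log2 ratio -1.72). Of all genes, 32.7% were lower and 16.2% higher there. All 12 were at least 2-fold higher at 14 than at 3 dpi (median 2.36), against 11.8% of all genes. All 10 proliferation genes were at least 2-fold higher at 3 dpi than in the ActD sham library (median 6.52), against 16.2% of all genes. In macrophages at 14 over 3 dpi, 17.6% of all genes were at least 2-fold higher and 9.93% lower. Of 24 further DAM genes, 12 were higher and 3 lower there. Their log2 ratios were 4.71 for Apoc1, 4.29 for Cadm1 and 4.27 for Serpine2, and -3.10 for Ccl6, -1.98 for Fabp5 and -1.47 for Lgals3. Of 18 homeostatic microglial genes, 16 were at least 2-fold higher and none lower in macrophages at 14 dpi than at 3 dpi (median 2.55), with 4.29 for Gpr34 and 3.92 for Siglech. Whether RNA or cells of microglia among the macrophages of 14 dpi take part in these values was not tested.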
